A study of Mus musculus with 9 samples.

Results

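Malat1, Neat1, Meg3, Rian, Mirg, Miat, Snhg11, Snhg1 and Gas5 are long noncoding RNAs that stay in the nucleus or carry small RNAs within their transcripts. These 9 genes of the 54532 counted were chosen by name, with their levels in these libraries already known, and all 9 were among the 17821 genes that passed the count filter. Their levels are therefore given as a description, without a test. The genotype contrasts were tested in a fit over all genes. The name "abundant" holds for only some of them. On mean CPM, which are counts scaled to library size, Meg3 ranked 9, Snhg11 16, Malat1 100 and Rian 140 among the genes tested, whereas Miat ranked 1302, Neat1 4664, Gas5 6154, Mirg 6757 and Snhg1 10428.

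The libraries came from striatum of STING KO, cGAS KO and wild-type (WT) mice, 3 libraries of each, and per the series' design text the tissue dates from after an ischemic stroke. Both knockouts had been made with CRISPR-Cas9 on the C57BL/6J background, which is also the strain of the WT mice. The age of the mice, the time after stroke and the part of each gene that was deleted are not given in the labels, and no uninjured group was analysed here. The labels do not say that the 3 libraries of a genotype are separate animals, so the spread behind each p-value may be technical. cGAS is the enzyme that makes a cyclic dinucleotide on meeting DNA in the cytosol, and STING is the receptor of that dinucleotide.

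Total counts per library lay between 14129021 and 21286775, and the 9 RNAs together took 0.502% to 1.15% of them. STING KO replicate 2, cGAS KO replicate 2 and WT replicate 3 stood apart: 2280 to 4723 genes had 1 to 9 counts there, against 7096 to 7927 in the other 6 libraries. The name libraries of low complexity is used for them, a division made on the data, and results are given with and without them. Cgas was at 1.10, 0.377 and 0.262 CPM in cGAS KO against 1.40, 2.63 and 3.18 CPM in WT, without overlap. Being lower in every cGAS KO library than in every WT library held for 4% of all genes. In STING KO, Cgas was at 1.55, 1.05 and 1.45 CPM, which overlaps cGAS KO, since cGAS KO replicate 1 lay above STING KO replicate 2. Sting1 was at 2.18, 1.05 and 1.84 CPM in STING KO against 4.06, 3.01 and 1.34 CPM in WT, which overlap, so its level does not check the STING KO label. Markers of striatal medium spiny neurons (Ppp1r1b, Drd1, Drd2 and others) were present in every library, with a summed level of 3283 to 8117 CPM. Markers of cortical neurons such as Slc17a7 and Tbr1 were present as well, and their summed level ranged from 60.92 to 963.9 CPM. Those of choroid plexus, led by Ttr, ranged from 10.87 to 2660 CPM.

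Malat1 is retained in nuclear speckles, the bodies in which splicing factors gather, and Neat1 is the scaffold on which paraspeckles form. Meg3, Rian and Mirg are transcribed from the maternal chromosome of the imprinted region between Dlk1 and Dio3, and they carry microRNAs and small nucleolar RNAs (snoRNAs), which guide the chemical modification of ribosomal and other RNAs. Gas5 and Snhg1 are spliced RNAs whose introns hold snoRNAs and whose exons encode no known protein. Their spliced forms enter translation and are broken down by nonsense-mediated decay. Miat is a nuclear RNA of neurons, and Snhg11 is a snoRNA host of neurons.

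The libraries were made from polyA+ RNA. Malat1 and the long form of Neat1 are known to finish in an A-rich element encoded in the genome rather than in an added poly(A) tail. Their ends are shown for that reason, beside the end of the short form of Neat1. All lie on the minus strand of chromosome 19 of GRCm38 (GENCODE transcripts), and are written 5′ to 3′. The windows are chr19:5795982-5796069 for Malat1-201, chr19:5824708-5824797 for the long transcript Neat1-201 and chr19:5842307-5842396 for the short transcript Neat1-202. Capitals mark the A-rich element in Malat1-201 and Neat1-201, and the polyadenylation signal AATAAA in Neat1-202.
Malat1-201: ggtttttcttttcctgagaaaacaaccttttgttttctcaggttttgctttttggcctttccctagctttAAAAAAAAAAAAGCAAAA
Neat1-201: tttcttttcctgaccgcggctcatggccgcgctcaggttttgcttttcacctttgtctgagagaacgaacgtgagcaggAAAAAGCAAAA
Neat1-202: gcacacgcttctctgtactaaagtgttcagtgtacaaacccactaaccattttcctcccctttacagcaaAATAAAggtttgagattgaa
The last 11 bases of Neat1-201 occurred once in Malat1-201, which as annotated runs 292 bases beyond that match. The counts per gene do not separate the 20771-base long form of Neat1 from its 3004-base short form.

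Start regions of 3 members are shown next, because translation of snoRNA host RNAs is known to be set by a run of pyrimidines at the 5′ end, as in ribosomal protein mRNAs. They come from RefSeq promoter windows of GRCm38.p6, which reach from 250 bases before to 50 bases after the annotated start and exist in the table for 8 of the 9 members, all but Neat1. Capitals mark the pyrimidine run over the annotated start in Gas5 (chr1:161035136-161035215, plus strand) and Snhg1 (chr19:8723457-8723536, plus strand), and the palindrome TGACGTCA in Meg3 (chr12:109540899-109540986, plus strand).
Gas5: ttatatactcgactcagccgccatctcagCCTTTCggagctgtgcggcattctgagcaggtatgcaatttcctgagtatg
Snhg1: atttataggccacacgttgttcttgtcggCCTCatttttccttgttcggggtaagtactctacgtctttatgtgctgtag
Meg3: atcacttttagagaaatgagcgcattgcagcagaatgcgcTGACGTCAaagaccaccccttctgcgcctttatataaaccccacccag
A C at the annotated start followed by at least 4 pyrimidines was found on the gene's strand in Gas5 and Miat, in 2.51% of the 32851 windows of the table, and in 13 of 71 windows of ribosomal protein genes (18.3%). TGACGTCA, which reads the same on both strands and is the sequence that cAMP-responsive factors are known to bind, was found in Meg3 and Gas5 and in 1.79% of all windows. These matches describe the windows only.

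The imprinted members are also shown by the microRNAs they hold. RefSeq places 3 mature microRNAs within Meg3, 6 within Rian and 26 within Mirg, on the same strand. Below, capitals mark the seed, bases 2 to 8, by which a microRNA pairs with its targets.
mmu-miR-770-5p: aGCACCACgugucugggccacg
mmu-miR-370-3p: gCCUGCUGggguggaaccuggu
mmu-miR-134-5p: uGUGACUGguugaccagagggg
mmu-miR-453: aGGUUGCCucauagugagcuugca
mmu-miR-496a-5p: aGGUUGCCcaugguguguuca
The first lies in Meg3, the next in Rian and the other 3 in Mirg. miR-453 and miR-496a-5p share the seed GGUUGCC, the only seed held in common among the microRNAs of these 3 genes. Mature microRNAs are too short for libraries of this kind, so the values below are of the host RNAs.

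Divided by the merged length of its exons, Snhg11 had the highest mean over the 9 libraries, at 261 CPM per kb, with a range over libraries of 169 to 385. Meg3 followed at 222 CPM per kb (155 to 307) and Malat1 at 119 CPM per kb (69.6 to 262). The ranges of these 3 genes overlap. Rian was at 37.3 CPM per kb (24.3 to 45.5) and Miat at 16.9 CPM per kb (5.74 to 35.4), with Rian's lowest library below Miat's highest. Gas5 was at 8.41 CPM per kb (3.16 to 12.8), Mirg at 3.66 (2.29 to 4.89), Snhg1 at 3.04 (0.483 to 6.51) and Neat1 at 2.28 (0.567 to 5.29). Neighbours in this lower order overlap throughout. Merged exons take in every annotated transcript of a gene. For Snhg1 they fill its whole span of 2969 bases, introns of the spliced form included. Those of Neat1 span its 20771-base long form, beside 3004 bases for the short form. The values per kb of these genes, and their place in the order, depend on that length. Within the imprinted region the order per length was Meg3, Rian, Mirg, with no overlap between them. The spread over the 9 libraries differed between members too: the highest library exceeded the lowest 1.88-fold for Rian and 1.98-fold for Meg3, and 9.33-fold for Neat1 and 13.5-fold for Snhg1.

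**Figure D1:**
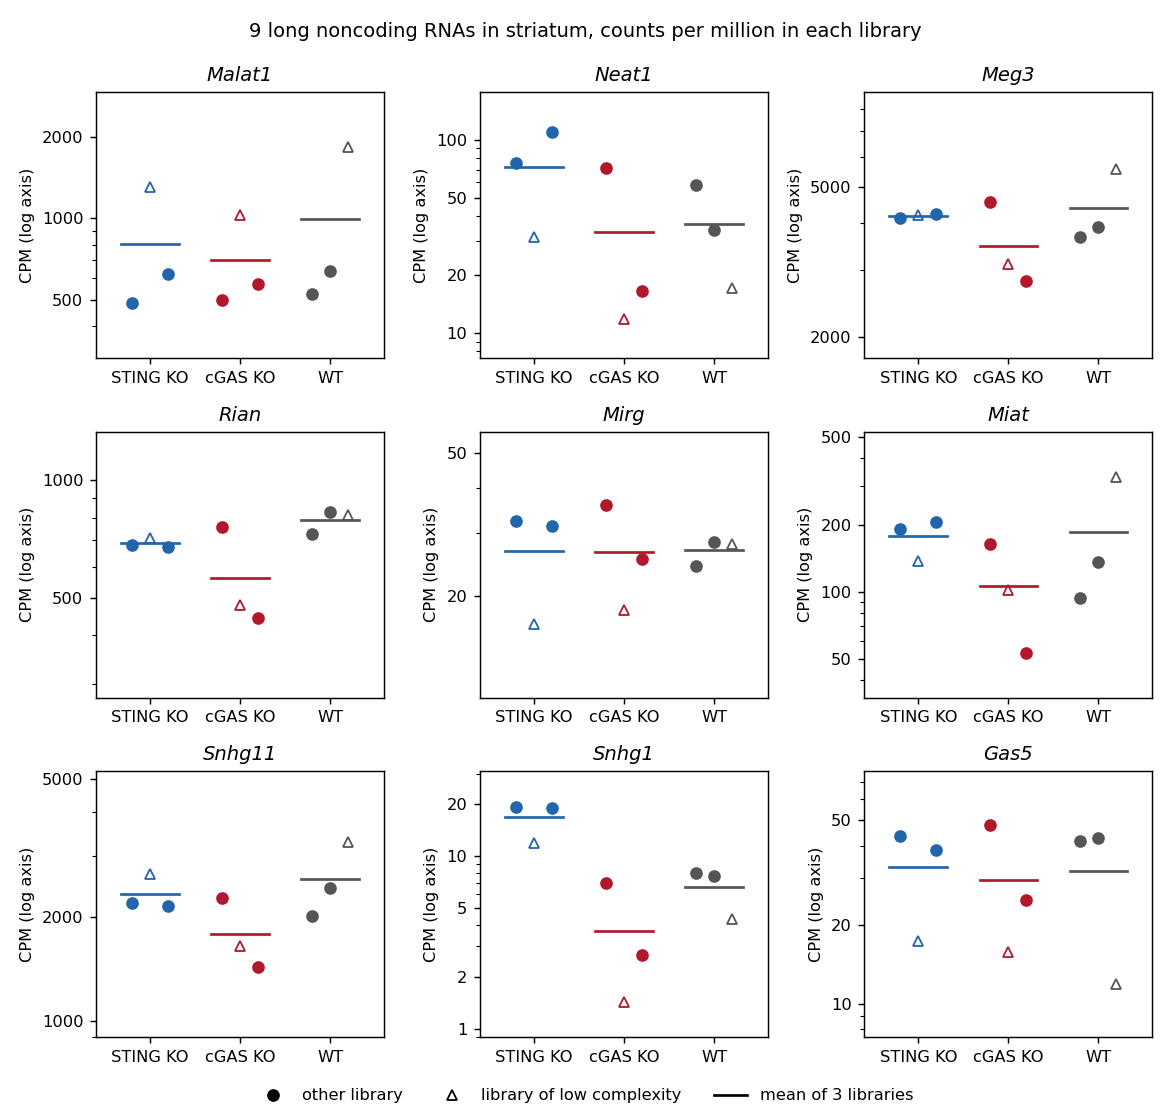
CPM (log axis) of the 9 RNAs in each library of STING KO, cGAS KO and WT striatum. Circles are libraries of ordinary complexity, open triangles are the 3 libraries of low complexity and lines are means of 3 libraries. Snhg1 was higher in every STING KO library than in any other, and Malat1 was highest in the library of low complexity of each genotype.

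No member passed the test in any of the 3 genotype comparisons (edgeR's quasi-likelihood test with Benjamini-Hochberg adjustment over all genes, threshold 0.05), and no gene of the 17821 did, so the share called was 0% for each. At an unadjusted p under 0.05 stood 0 of the 9 for cGAS KO over WT, where 2.03% of all genes did, 1 of the 9 for STING KO over WT, where 1.63% did, and 1 of the 9 in STING KO against cGAS KO, where 1.45% did. That 1 was Snhg1 both times. DESeq2 also called no member, while it called 0.00561% of all genes in cGAS KO against WT, 0.0561% for STING KO over WT and 0.0505% for STING KO over cGAS KO. Over the 6 libraries of ordinary complexity edgeR called no member either, and of all genes 0%, 0.0227% and 0.017% in the same order.

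Snhg1 was the member with the largest genotype differences. It was at 19.3, 11.9 and 19.0 CPM in STING KO, at 6.96, 1.43 and 2.69 CPM in cGAS KO and at 7.99, 7.62 and 4.32 CPM in WT. Every STING KO library lay above every library of both other genotypes, the STING KO library of low complexity included. Among all genes tested, 3.4% were higher in every STING KO library than in every WT library and 3.63% than in every cGAS KO library, and 3.72% were lower in every STING KO library than in every cGAS KO library. The log2 fold change was 1.33 (SE 0.51) in STING KO against WT, with an unadjusted p of 0.0278 and an edgeR adjusted p of 0.9999. In STING KO against cGAS KO it was 2.17 (SE 0.53), with an unadjusted p of 0.00240 and an edgeR adjusted p of 1. Neither passed the threshold. Over all 15 fits tried, which include DESeq2 and the leaving out of each library, the adjusted p lay between 0.586 and 1 against WT and between 0.0752 and 1 against cGAS KO. The value of 0.0752 came from DESeq2.

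The direction held without the libraries of low complexity, where Snhg1 had a log2 fold change of 1.29 (SE 0.35) for STING KO over WT and of 1.98 (SE 0.36) for STING KO over cGAS KO. The comparison of cGAS KO with WT gave −0.84 (SE 0.52, unadjusted p of 0.138), with overlapping libraries, since cGAS KO replicate 1 lay above WT replicate 3. It was −1.68 without cGAS KO replicate 1 and −0.46 without cGAS KO replicate 2. Leaving out cGAS KO replicate 1 moved the STING KO against cGAS KO value to 3.01 on the log2 scale. Slc3a2, whose 5′ end faces that of Snhg1 a short way off at chr19:8706882-8723369 and which was looked up after the values of Snhg1 were seen, was at 81.9, 26.7 and 80.8 CPM in STING KO, 80.5, 44.4 and 68.1 CPM in cGAS KO and 75.2, 72.6 and 31.4 CPM in WT. Its log2 fold change was 0.08 for STING KO over WT and −0.03 for STING KO over cGAS KO. All 8 genes annotated over Snhg1 had 0 counts in every library.

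Gas5, the other classical host, did not separate the genotypes. It was at 43.6, 17.3 and 38.5 CPM in STING KO, at 48.0, 15.8 and 24.8 CPM in cGAS KO and at 41.8, 42.8 and 11.9 CPM in WT. In each genotype the library of low complexity was lowest, and the genotypes overlap. The log2 fold change was 0.04 (SE 0.55) in STING KO against WT, −0.12 (SE 0.55) in cGAS KO against WT and 0.16 (SE 0.55) in STING KO against cGAS KO. Gas5 overlaps Zbtb37, on the opposite strand, which had up to 805 counts in a library. The sources used here give no strand setting for the counting, so reads of both genes could not be told apart if strand was not used.

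A ratio taken within a library is free of its depth. Snhg1 stood at 44.3, 69.0 and 49.2 counts per 100 Gas5 counts in STING KO, at 14.5, 9.05 and 10.8 in cGAS KO and at 19.1, 17.8 and 36.3 in WT. The 3 genotypes did not overlap, with STING KO highest and cGAS KO lowest. The ratio reuses the Snhg1 values above, which on their own overlap between cGAS KO and WT. Since Gas5 was lowest in the library of low complexity of each genotype, the ratio also carries that difference between libraries. The values of 69.0 and 36.3 are from such libraries. How often other pairs of genes separate in this way was not counted. The group means were 54.2 ± 13.0 in STING KO, 11.5 ± 2.79 in cGAS KO and 24.4 ± 10.3 in WT (SD, n = 3 each). A group of 3 against 3 cannot reach an exact permutation p below 0.1, so the ratio is given without a test.

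**Figure D2:**
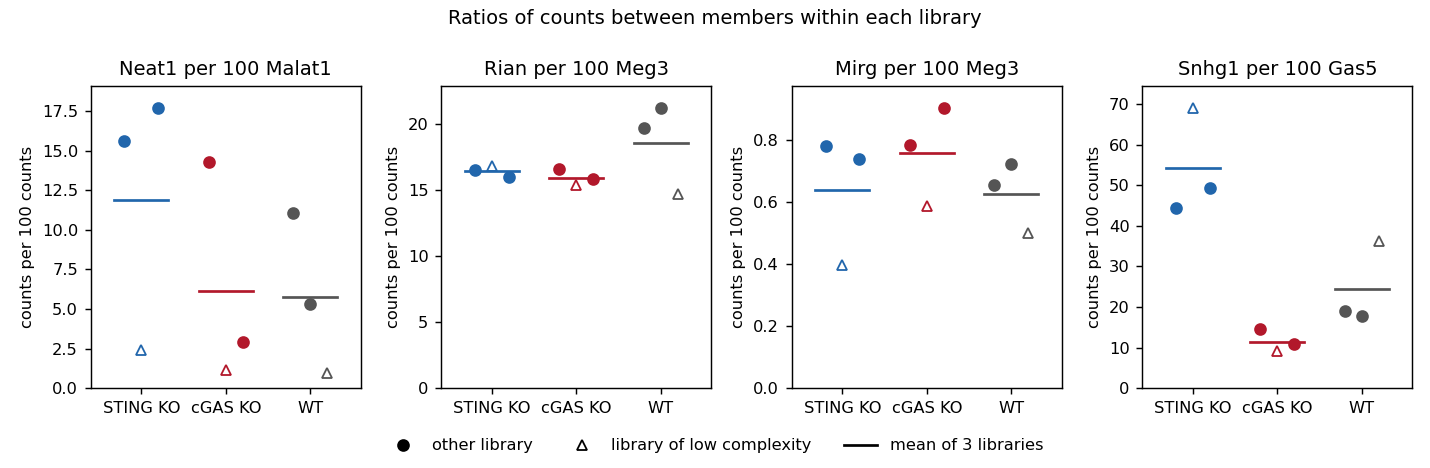
Counts of one member per 100 counts of another within each library of STING KO, cGAS KO and WT striatum. Circles are libraries of ordinary complexity, open triangles are those of low complexity and lines are means of 3 libraries. Snhg1 per 100 Gas5 lay at 44.3 to 69.0 in STING KO, above cGAS KO and WT, and Rian per 100 Meg3 lay between 14.7 and 21.2 in all 9 libraries.

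Of the 18 other snoRNA host genes listed, 13 were tested and none passed. Their median log2 fold change was 0.06 in STING KO against WT (9 positive, 4 negative), −0.28 in cGAS KO against WT (3 positive, 10 negative) and 0.37 in STING KO against cGAS KO (12 positive, 1 negative). The medians over all genes were −0.00, −0.01 and 0.01. Snhg12 was at 8.27, 5.58 and 8.27 CPM in STING KO, 9.22, 1.21 and 5.37 CPM in cGAS KO and 8.99, 7.36 and 1.49 CPM in WT. Zfas1, another host, was at 11.3, 2.58 and 9.22 CPM in STING KO, 13.1, 2.41 and 4.65 CPM in cGAS KO and 12, 8.86 and 1.20 CPM in WT. In both genes every pair of genotypes overlaps. Of the 13 hosts, Snhg10 alone had groups that did not overlap: it was at 0.808, 1.12 and 1.17 CPM in STING KO against 0.580, 0.604 and 0.197 CPM in cGAS KO, a log2 fold change of 1.15 (SE 0.65, unadjusted p of 0.105), and overlapped WT. Of all genes, 3.4% to 4% did not overlap in each direction of each comparison. The level of 0.197 CPM lies at the floor of 3 counts, 0.141 to 0.212 CPM. Snhg10, Snhg12 and Zfas1 were picked after their values were seen. The 17 listed factors of nonsense-mediated decay, such as Upf1, were all tested, none passed, and their medians were 0.08 in STING KO against WT, 0.03 in cGAS KO against WT and −0.03 for STING KO over cGAS KO.

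Malat1 varied more within each genotype than between genotypes. It was at 486, 1303 and 621 CPM in STING KO, at 501, 1029 and 571 CPM in cGAS KO and at 523, 639 and 1833 CPM in WT. The highest library of each genotype was its library of low complexity, and the genotypes overlap. The log2 fold change was −0.31 (SE 0.54) in STING KO against WT, −0.51 (SE 0.54) in cGAS KO against WT and 0.20 (SE 0.54) in STING KO against cGAS KO. Over the other 6 libraries the highest exceeded the lowest only 1.32-fold, the smallest such ratio of the 9 members. There the log2 fold changes were −0.07, −0.12 and 0.04, each with an SE of 0.18.

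Neat1 was at 76.0, 31.4 and 110 CPM in STING KO, at 71.5, 11.8 and 16.5 CPM in cGAS KO and at 58.2, 34.1 and 17.1 CPM in WT. In each genotype its library of low complexity was the lowest, the reverse of Malat1. The genotypes overlap over 9 libraries, and the log2 fold change was 0.99 (SE 0.72, unadjusted p of 0.201) in STING KO against WT. It was −0.13 (SE 0.71) in cGAS KO against WT and 1.12 (SE 0.72, unadjusted p of 0.153) for STING KO over cGAS KO. Single libraries moved these values of Neat1: STING KO over cGAS KO was 2.36 without cGAS KO replicate 1 and 0.68 without STING KO replicate 3, and STING KO over WT was 1.5 without WT replicate 1 and 0.56 without STING KO replicate 3. With the libraries of low complexity left out, both STING KO libraries lay above both of WT and both of cGAS KO. The same held for 24.3% and 16.6% of all genes, and the edgeR adjusted p values there were 0.7504 and 0.9264.

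Neat1 stood at 15.6, 2.41 and 17.7 counts per 100 Malat1 counts in STING KO, at 14.3, 1.14 and 2.89 in cGAS KO and at 11.1, 5.34 and 0.930 in WT. The ratio thus spanned more than the genotypes' means, which were 11.9, 6.10 and 5.80. The proteins of the bodies these RNAs sit in showed no called gene. For the 18 paraspeckle proteins the median log2 fold change was −0.03 in STING KO against WT, −0.08 in cGAS KO against WT and 0.01 for STING KO over cGAS KO. For the 20 nuclear speckle proteins it was −0.01, −0.25 and 0.20 in the same order. Son, a speckle core protein, was at 487, 1101 and 560 CPM in STING KO, 480, 820 and 490 CPM in cGAS KO and 526, 561 and 1172 CPM in WT. It was highest in the library of low complexity of each genotype, as Malat1 was, but most of the list did not follow. Of the 20 nuclear speckle proteins, 2 were higher and 9 lower in those libraries in all 3 genotypes. The shares over all genes were 20.6% higher and 23.7% lower.

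**Figure D3:**
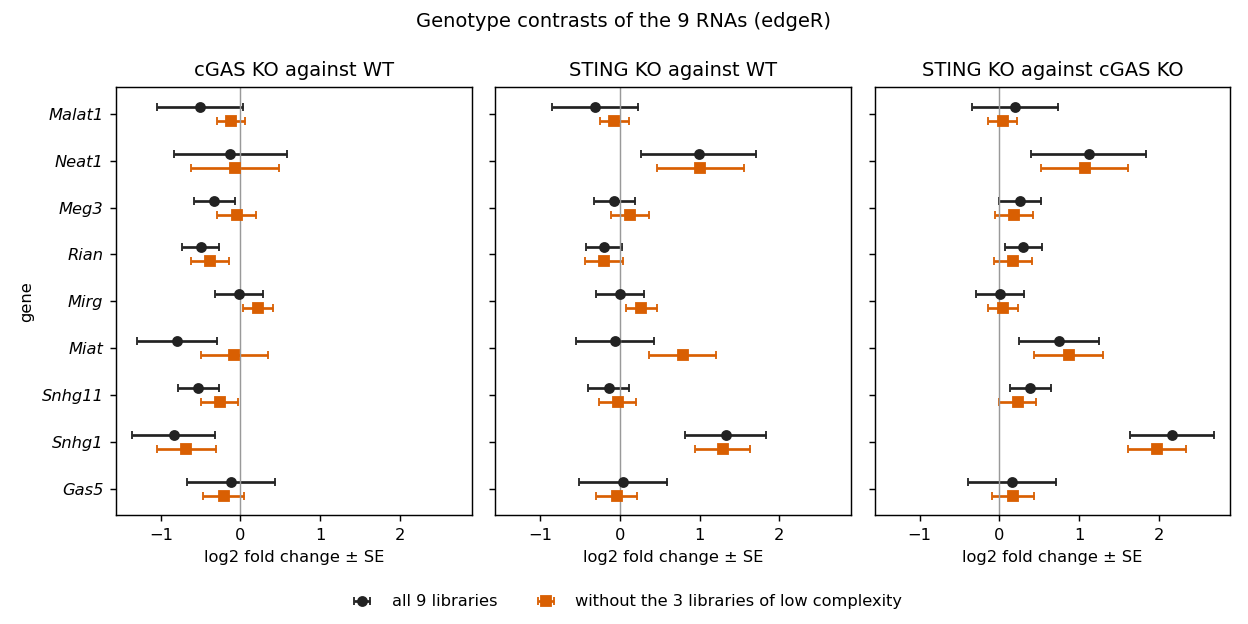
Log2 fold change with its standard error (edgeR) of the 9 RNAs in cGAS KO against WT, STING KO against WT and STING KO against cGAS KO, for all 9 libraries and without the 3 of low complexity. Snhg1 had the largest value in both comparisons of STING KO, and no value passed the adjusted threshold.

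Meg3 was the most highly counted member. It was at 4124, 4218 and 4221 CPM in STING KO, at 4551, 3113 and 2811 CPM in cGAS KO and at 3689, 3913 and 5554 CPM in WT. The 3 STING KO libraries lay close together, within the range of the other genotypes. The log2 fold change was −0.07 (SE 0.26) in STING KO against WT, −0.33 (SE 0.26) in cGAS KO against WT and 0.26 (SE 0.26) in STING KO against cGAS KO. The cGAS KO against WT value of Meg3 was −0.05 (SE 0.24) over the 6 libraries of ordinary complexity and −0.12 without WT replicate 3 alone. Rian, the host of most of the region's snoRNAs, was at 680, 709 and 675 CPM in STING KO, at 758, 478 and 443 CPM in cGAS KO and at 729, 830 and 815 CPM in WT. Each STING KO library lay below each WT library, as 3.67% of all genes did, by a log2 fold change of −0.20 (SE 0.23, unadjusted p of 0.392). In cGAS KO against WT the log2 fold change of Rian was −0.50 (SE 0.23), with an unadjusted p of 0.0527, an edgeR adjusted p of 0.9999 and overlapping libraries, cGAS KO replicate 1 lying above WT replicate 1. cGAS KO replicate 3 had the lowest level of Meg3 and of Rian among all 9 libraries.

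Rian was also read against Meg3. It stood at 16.5, 16.8 and 16.0 counts per 100 Meg3 counts in STING KO, at 16.6, 15.4 and 15.8 in cGAS KO and at 19.7, 21.2 and 14.7 in WT. WT replicates 1 and 2 were above the other 7 libraries, and WT replicate 3, of low complexity, was below all of them. In the libraries of ordinary complexity, 2 of each genotype, the ratio was thus lower in both knockouts than in WT. Among single genes such a separation was common: 23.2% were lower than WT there in STING KO and 14.9% in cGAS KO. Mirg, the microRNA host at the far end of the cluster, was at 32.2, 16.7 and 31.2 CPM in STING KO, at 35.7, 18.3 and 25.4 CPM in cGAS KO and at 24.2, 28.3 and 27.8 CPM in WT. Its genotype means were 26.7, 26.5 and 26.8 CPM, and in both knockouts the library of low complexity was lowest.

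Between Dlk1 and Dio3, which span chr12:109452823-110281097 of GRCm38, 118 genes are annotated, of which 21 were tested and 53 had 0 counts in every library. Dlk1, a paternally expressed gene for a membrane protein of the Notch ligand family, was at 25.1, 14.5 and 15.6 CPM in cGAS KO against 8.58, 8.32 and 9.48 CPM in WT. All cGAS KO libraries lay above all WT libraries, as 4% of all genes did. Its log2 fold change was 1.07 (SE 0.37), with an unadjusted p of 0.0175 and an edgeR adjusted p of 0.9999. In STING KO, Dlk1 was at 11.1, 4.39 and 11.7 CPM, below all cGAS KO libraries, and the log2 fold change of STING KO against cGAS KO was −1.02 (SE 0.37, unadjusted p of 0.0216). Meg3, Rian and Mirg are transcribed from the other parental chromosome. Their log2 fold changes in cGAS KO against WT were −0.33 (SE 0.26), −0.50 (SE 0.23) and −0.02 (SE 0.30). All 9 members were negative there, as were 9169 of the 17821 genes tested. Without the libraries of low complexity the values of Meg3, Rian and Mirg were −0.05, −0.38 and 0.22. Rtl1, the retrotransposon-derived gene on the opposite strand between Meg3 and Rian, was at 0.07 (SE 0.19) in cGAS KO against WT over all 9 libraries. Dio3, a thyroid hormone deiodinase, was below 1 CPM in every library. The 12 listed coding genes of the region and its neighbours were all tested, none passed, and their median was 0.06 in STING KO against WT, 0.23 in cGAS KO against WT and −0.15 for STING KO over cGAS KO.

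Several genes annotated within the hosts had counts of their own. Among snoRNAs, Gm25129 in Snhg11 had 71 to 182 counts in a library and Gm24564 in Rian 15 to 144. Gm26945, a long noncoding RNA annotated within Rian on the same strand, was at 6.90, 26.2 and 6.26 CPM in STING KO, at 3.19, 12.3 and 4.39 CPM in cGAS KO and at 4.38, 5.37 and 24.0 CPM in WT. It was highest in the library of low complexity of each genotype, a pattern Rian itself did not show. Of the 19 genes annotated over Rian, 9 had 0 counts throughout, and of the 15 over Mirg, 7 did. The sources used here do not say how a read over both host and inner gene was counted.

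Miat was at 192, 138 and 207 CPM in STING KO, at 164, 102 and 53.3 CPM in cGAS KO and at 93.5, 137 and 329 CPM in WT. The genotypes overlap, and WT held the highest library and cGAS KO the lowest. The log2 fold change was −0.06 (SE 0.49) in STING KO against WT, −0.80 (SE 0.50, unadjusted p of 0.138) in cGAS KO against WT and 0.75 (SE 0.50, unadjusted p of 0.164) in STING KO against cGAS KO. The STING KO against WT value turned, without the libraries of low complexity, to 0.79 (SE 0.42, unadjusted p of 0.0972), and that of cGAS KO against WT shrank to −0.08 (SE 0.42). Without WT replicate 3 alone the cGAS KO against WT value was −0.11. Cortical neuron markers varied between libraries as well, and the summed CPM of the 4 genes was 579.7, 229.3 and 451.6 in STING KO, 322.9, 419.8 and 69.31 in cGAS KO and 60.92, 390.8 and 963.9 in WT. Miat and these markers were both highest in WT replicate 3, and none of the 4 markers was at 0 in any library. None was called, and their median log2 fold change was −0.16 in STING KO against WT, −0.88 in cGAS KO against WT and 0.71 for STING KO over cGAS KO. Over the 6 libraries of ordinary complexity it was 1.09, −0.32 and 1.48 in the same order. Their part in the values of Miat was not tested, and in bulk tissue fewer cells of a type cannot be told apart from less RNA per cell.

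Snhg11 is annotated as protein coding in the GENCODE release used, and is known mainly as a noncoding host in neurons. It was at 2189, 2660 and 2147 CPM in STING KO, at 2261, 1646 and 1438 CPM in cGAS KO and at 2004, 2422 and 3280 CPM in WT. The genotypes overlap through cGAS KO replicate 1, while the other cGAS KO libraries lay below every library of STING KO and WT. The log2 fold change was −0.14 (SE 0.26) in STING KO against WT, −0.53 (SE 0.26, unadjusted p of 0.0738) in cGAS KO against WT and 0.39 (SE 0.26, unadjusted p of 0.171) in STING KO against cGAS KO. The cGAS KO against WT value of Snhg11 was −0.26 (SE 0.23) over the 6 libraries of ordinary complexity and −0.31 without WT replicate 3 alone. Markers of neurons in general, such as Snap25, had a summed level of 3298 to 3771 CPM in STING KO, 3370 to 3674 CPM in cGAS KO and 3088 to 5193 CPM in WT, so they overlapped as well.

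Read as a group, all 9 members had negative log2 fold changes in cGAS KO against WT, as 9169 of the 17821 genes did. The median was −0.50 beside −0.01 over all genes. Malat1, Neat1, Mirg and Gas5 changed sign there when single libraries were left out. Of the values in STING KO against WT, 3 were positive and 6 negative, with a median of −0.06 beside −0.00. Over all genes 8809 were positive and 9012 negative. Against cGAS KO all 9 STING KO values were positive, as were 9098 of all genes, with a median of 0.30 beside 0.01. The comparisons share libraries and are not independent, and neither are the members, which were read from the same 9 libraries. Without the libraries of low complexity, 8 of 9 were negative in cGAS KO against WT (median −0.12), as were 8894 of the 17657 genes tested there. In STING KO against WT 5 were positive (median 0.13), as were 8869 of all genes. For STING KO over cGAS KO all 9 were positive (median 0.18), as were 8965 of all genes. Among 15 tested other long noncoding RNAs of brain, including Kcnq1ot1 and Tug1, none passed and the medians were 0.05 in STING KO against WT, 0.00 in cGAS KO against WT and 0.05 for STING KO over cGAS KO.

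The libraries of low complexity divided the members. The difference of log2(CPM + 1) between such a library and the mean of the other 2 of its genotype was 1.24 in STING KO, 0.94 in cGAS KO and 1.66 in WT for Malat1. Malat1 was thus higher there in all 3 genotypes, as 20.6% of all genes were. Neat1 had differences of −1.51 in STING KO, −1.48 in cGAS KO and −1.34 in WT. Gas5 had −1.20, −1.08 and −1.75, and Snhg1 −0.64, −1.15 and −0.73, in the same order. These 3 members were lower in all 3 genotypes, as 23.7% of all genes were. Meg3, Rian, Mirg, Miat and Snhg11 were of mixed direction, with means over the 3 genotypes between −0.50 and 0.37.

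Other RNAs of the same classes fell on both sides. Kcnq1ot1, an imprinted antisense RNA that stays at its locus, was at 26.0, 161 and 25.0 CPM in STING KO, 26.7, 173 and 39.9 CPM in cGAS KO and 28.6, 34.4 and 141 CPM in WT, a mean difference of 2.37. Snhg14, the host RNA of the Prader-Willi region, had a mean difference of 1.09, whereas the hosts Zfas1 and Snhg20 had −1.80 and −1.74. Of the 13 other snoRNA hosts tested, 1 was higher and 6 were lower in all 3 genotypes, and of the 15 other long noncoding RNAs, 7 were higher and 2 lower. Over all genes 20.6% were higher and 23.7% lower. Lists of coding genes were uneven too: of the 18 paraspeckle proteins, 2 were higher and 8 lower. Of 11 RNAs listed as lacking a poly(A) tail, 9 were among the genes counted. Their summed level was 61.96, 68.45 and 86.95 CPM in the libraries of low complexity of STING KO, cGAS KO and WT. In the other 6 libraries it was 6.819 to 16.90 CPM. Nearly all of the sum in the libraries of low complexity was Gm26917, at 61.3, 67.8 and 84.5 CPM, and 7 of the 9 RNAs were at 0 there. Whether Gm26917 itself lacks a tail was not tested. Exon length moved with the difference too: with all genes tested split by merged exon length into 4 groups of like size, its median was −0.31, −0.26, −0.03 and 0.29, shortest to longest. By merged exons Malat1, with 6983 bases, and Neat1, with 20771, both fall in the longest group, and they differed in sign. The 3004-base short form of Neat1 would fall in the second group, of 2324 to 3955 bases. The counts do not separate the 2 forms. The part of length, tail or RNA quality in these values was not tested.

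**Figure D4:**
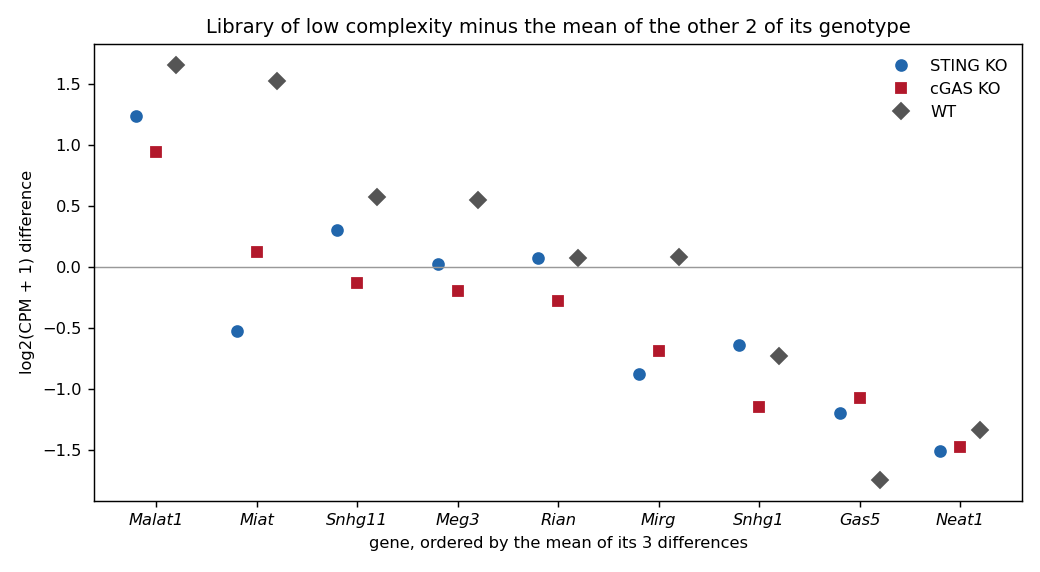
Difference of log2(CPM + 1) between the library of low complexity and the mean of the other 2 libraries of its genotype, for the 9 RNAs, with a point each for STING KO, cGAS KO and WT. Malat1 was above 0 in all 3 genotypes, and Snhg1, Gas5 and Neat1 were below 0 in all 3.

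The members fell into patterns over the 9 libraries that were compared by the root mean square difference of centred log2 CPM, where 0 means equal profiles. This value also depends on a gene's own spread, since a gene of constant level lies at a distance equal to that spread. The spread was 0.274 for Meg3, 0.302 for Rian, 0.331 for Mirg and 0.332 for Snhg11. For Malat1 it was 0.648, for Gas5 0.689, for Miat 0.708, for Snhg1 0.978 and for Neat1 1.035. Among members, Meg3 and Snhg11 were closest, at 0.120, followed by Meg3 and Rian at 0.162 and Rian and Snhg11 at 0.164. Malat1 and Neat1 were the farthest apart, at 1.525. Among 11986 other genes with a mean of at least 5 CPM, the closest to Rian was Zranb2, a splicing factor, at 0.048, and its values were 159, 177 and 172 CPM in STING KO, 178, 112 and 103 CPM in cGAS KO and 177, 191 and 201 CPM in WT. The closest to Meg3 was B230217C12Rik at 0.075, to Snhg11 Spaca6 at 0.082 and to Mirg Rwdd2a at 0.069.

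The 2 genes closest to Malat1 were Fut9, a fucosyltransferase of neurons, at 0.109, and Jpx, a noncoding RNA of the X inactivation centre, at 0.133. Fut9 was highest in the library of low complexity of each genotype, with 310, 224 and 405 CPM in STING KO, cGAS KO and WT. The genes closest to Gas5 were Ndufa4, of the respiratory chain, at 0.104, and Eif1, a translation initiation factor, at 0.110. Eif1 was lowest in those libraries, with 115, 120 and 73.7 CPM. The closest gene to Miat was Fezf2, a transcription factor of deep cortical layers, at 0.173, which was at 10.4, 6.55 and 10 CPM in STING KO, 5.57, 5.28 and 1.90 CPM in cGAS KO and 3.97, 6.28 and 14.3 CPM in WT. Neat1 and Snhg1, the members of largest spread, were also the farthest from their nearest genes: Ccl27a at 0.411 for Neat1 and Mfsd10 at 0.502 for Snhg1. The next after Mfsd10 was Dusp1, an immediate early phosphatase, at 0.503, which was at 65.0, 36.1 and 39.9 CPM in STING KO, 21.9, 14.6 and 18.0 CPM in cGAS KO and 23.2, 22.8 and 24.1 CPM in WT. As with Snhg1, every STING KO library was above every other library. Of all genes, 3.4% were higher in every STING KO library than in every WT library, and 3.63% than in every cGAS KO library. Dusp1 was picked for its likeness to Snhg1 over these same libraries, so its pattern is no separate support. These profiles share the depth and complexity of the same 9 libraries.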

How the data were processed

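RNA-seq counts of 9 striatum libraries, 3 per genotype, were analysed. The authors deposited whole-number counts per Ensembl gene and library. HISAT2, featureCounts and mm10 are named in the submitters' processing notes, without settings. Libraries were from polyA+ RNA with paired reads of 150 bases, per the labels' protocols. Of 54532 gene IDs, 54495 matched GENCODE names on GRCm38. The other 37 took at most 0.0361% of a library's counts.

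Counts were fitted with edgeR 4.0.16 in R 4.3.3 (TMM factors, filterByExpr, quasi-likelihood test, 17821 genes, all 9 libraries in 1 fit, genotype only), with Benjamini-Hochberg adjustment over all genes and a threshold of 0.05. The code was checked on simulated data. CPM use library totals scaled by the TMM factors. Differences between libraries used a pseudocount of 1 CPM. A floor of 3 counts corresponds to 0.141 to 0.212 CPM, for counting error only. No pair of libraries of a genotype agreed within sampling noise. Alternatives were RLE factors, DESeq2 1.42.0, no count filter, only the libraries compared, a replicate block, and leaving out libraries.

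Members and lists were chosen with earlier results of these data known. A marker of cortical neurons is not reported here, and its values enter no sum or median of that list. Named genes are the 9 members, the targeted genes, listed genes with high CPM, genes between Dlk1 and Dio3, genes over a member, and the 2 genes closest to each member by profile. Other genes named, and the examples picked within lists (Snhg10, Snhg12, Zfas1, Snhg20, Kcnq1ot1, Tug1), were chosen after their values were seen. Further lists held no called gene in any comparison. Their median log2 fold changes in STING KO against WT, cGAS KO against WT and STING KO against cGAS KO were 0.16, 0.23 and −0.07 for medium spiny neurons, −0.15, −0.17 and −0.03 for neurons in general, −0.18, 0.16 and −0.33 for oligodendrocytes, −0.14, −0.17 and −0.05 for astrocytes, −0.01, 0.24 and −0.22 for microglia, −0.19, −0.05 and −0.15 for endothelium, −1.49, −3.55 and 1.11 for choroid plexus, and −0.74, −0.68 and −0.05 for the 2 tested RNAs without a poly(A) tail. Without the libraries of low complexity the same medians were −4.08, −3.52 and −1.26 for choroid plexus, 0.15, 0.79 and −0.63 for the RNAs without a tail, −0.30, −0.19 and −0.21 for oligodendrocytes, −0.05, 0.07 and −0.08 for medium spiny neurons, 0.09, −0.02 and 0.09 for neurons in general and −0.22, 0.02 and −0.20 for endothelium. Astrocytes and microglia kept their signs.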

Additional observations from a re-analysis of the deposited data

How the results depend on the processing

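Of 405 values of member fold changes under alternatives, 367 kept their direction and 38 changed it, and no member passed the adjusted threshold under any. The genes called over the whole table, 0 in each comparison, became 1 in cGAS KO against WT with DESeq2. In STING KO against WT they became 10 with DESeq2, 4 without the count filter and 4 without the libraries of low complexity, and in STING KO against cGAS KO 9, 4 and 3. With the replicate number as a block they remained 0, and no member's call changed. Same-numbered libraries correlated between −0.45 and 0.5 in their deviations from the group means, so the numbers were not taken to pair them.

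Without the libraries of low complexity, Mirg turned from −0.02 to 0.22 on the log2 scale in cGAS KO against WT. In STING KO against WT, Meg3 turned from −0.07 to 0.13, Mirg to 0.27, Miat from −0.06 to 0.79 and Gas5 from 0.04 to −0.04. Mirg was at 0.02 there without the count filter. Leaving out each library in turn, the ranges that include both signs in cGAS KO against WT were −0.88 to 0.27 for Malat1, −1.37 to 0.39 for Neat1, −0.29 to 0.20 for Mirg and −0.66 to 0.18 for Gas5. In STING KO against WT they were −0.84 to 0.46 for Malat1, −0.17 to 0.14 for Meg3, −0.16 to 0.25 for Mirg, −0.36 to 0.63 for Miat, −0.28 to 0.07 for Snhg11 and −0.35 to 0.35 for Gas5. In STING KO against cGAS KO they were −0.34 to 0.58 for Malat1, −0.20 to 0.29 for Mirg and −0.14 to 0.71 for Gas5. Snhg1 stayed between 1.10 and 1.52 in STING KO against WT between −1.68 and −0.46 in cGAS KO against WT and between 1.79 and 3.01 in STING KO against cGAS KO. Ranges of 1 sign included −0.56 to −0.12 for Meg3 and −1.25 to −0.11 for Miat in cGAS KO against WT, and for Neat1 0.56 to 1.5 in STING KO against WT and 0.68 to 2.36 in STING KO against cGAS KO. The cause of these changes was not tested. The spread of 3 libraries a group limits the precision. For Snhg1 the low counts in the libraries of low complexity, 171 in STING KO, 19 in cGAS KO and 61 in WT, limit it too.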
